A study of Mus musculus with 4 samples.

Results

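The epicardium is the sheet of mesothelium that covers the outside of the heart, and 9 of its marker genes are described here: Wt1, Tbx18, Tcf21, Aldh1a2, Upk1b, Upk3b, Msln, Krt19 and Gpm6a. They were chosen by gene symbol and make up 9 of the 23337 gene rows of a count table from cardiac cushions, the swellings from which the heart valves form. Total RNA was sequenced from cushions of C57BL/6 mouse embryos at embryonic day 14.5, in 2 libraries from Nfatc1Cre;Brg1F/F mutants and 2 libraries from wildtype littermates. The mutants carry 2 floxed copies of Brg1, which the count table lists as Smarca4 and which encodes a motor subunit of SWI/SNF chromatin remodellers, and Cre is driven by Nfatc1, a gene of the endocardium, the inner lining of the heart. Tissue of every library was dissected under guidance of GFP from a Cre reporter, without cell sorting. Whether the wildtype embryos carried the Cre allele, and how many embryos went into a library, is not stated in the labels; p-values therefore rest on a spread between libraries that may be partly technical.

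Epicardial cells arise from the proepicardium, outside the endocardial lineage in which Nfatc1-Cre acts. They spread over the myocardium as an epithelial sheet, and some of them undergo epithelial-to-mesenchymal transition, enter the heart wall and give rise to fibroblasts and mural cells. Part of these cells also enter the lateral cushions of the atrioventricular canal. Wt1, Tbx18 and Tcf21 encode transcription factors of the sheet and of its derivatives, Aldh1a2 encodes the enzyme that makes retinoic acid, and Upk1b, Upk3b, Msln, Krt19 and Gpm6a encode membrane, surface and keratin proteins of mesothelium.

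The libraries held 14104458 to 22426537 reads within genes, and 14316 genes passed the low count filter of edgeR. All 9 epicardial marker genes passed it, with 136 to 2142 reads per gene and library. Smarca4, the floxed gene, measured 282 and 239 CPM (reads relative to library size) in mutant replicates 1 and 2, and 251 and 231 CPM in wildtype replicates 1 and 2, which overlapped. A count over the whole gene in unsorted tissue is no check of a deletion limited to floxed exons in 1 lineage, and the genotypes are used as labelled. Mutant replicate 2 stands apart in sex: Xist measured 13.3 CPM there and 2047 to 2659 CPM in the other libraries, and Kdm5d, Uty, Ddx3y and Eif2s3y on the Y chromosome together had 8400 reads there, against 0 in mutant replicate 1, 0 in wildtype replicate 1 and 72 in wildtype replicate 2. Results on the marker genes are therefore also given for pair 1 (replicate 1 of each genotype, both without Y-linked reads) and pair 2 apart.

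The label was checked against levels corrected for transcript length, in TPM. Averaged over the 4 libraries, the 9 genes had TPM levels from 13.4 (Msln) to 90.7 (Tbx18), with a median of 46.5, and they stood between the 36.3 and 84.7 percentile of tested genes by TPM. The order of mean TPM was Tbx18, Upk3b at 67.9, Gpm6a at 66.6, Aldh1a2 at 58.5, Tcf21 at 46.5, Krt19 at 34.7, Upk1b at 24.4, Wt1 at 20.8 and Msln. Neighbours whose 4 libraries overlapped in TPM were Upk3b and Gpm6a, Gpm6a and Aldh1a2, Krt19 and Upk1b, and Upk1b and Wt1; the libraries of Tbx18, those of Tcf21 and those of Msln lay apart from their neighbours.

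Some of the 9 genes are also used by other tissues, so defining markers of those tissues were read in the same libraries. Krt19 and the uroplakins occur in other epithelia. Of 14 markers of lung, gut and stratified epithelium, 3 passed the low count filter. Sftpc, Foxa1 and Shh had 0 reads in all 4 libraries. Averaged over the libraries, the 14 markers summed to 6.39 TPM. In CPM they summed to 2.46 and 6.29 in mutant replicates 1 and 2, and 2.34 and 3.41 in wildtype replicates 1 and 2. The part of other epithelia in the values of Krt19, Upk1b and Upk3b was not tested. Gpm6a is also abundant in neurons; 9 of 11 neuronal markers passed the filter, with a median over the list of 2.68 TPM. Of the 11, 10 were at or under 6.64 TPM, while Gap43, a growth cone protein, was at 69.8 TPM, above Gpm6a; the part of neurons in the Gpm6a values was not tested. Wt1, Upk3b and Msln also mark the mesothelium of other organs and of the pericardium, which these lists cannot tell from epicardium. Myocardium was present in the dissected tissue, with a median of 2335 TPM over 14 cardiomyocyte markers. The median was 75.1 TPM over 12 endocardial and endothelial markers and 37.95 TPM over 12 markers of cushion mesenchyme. It was 134.8 TPM over 15 fibroblast and mural markers and 200.4 TPM over 8 smooth muscle markers. The part of such cells in the values of Wt1, Tbx18, Tcf21 and Aldh1a2 was not tested.

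**Figure D1:**
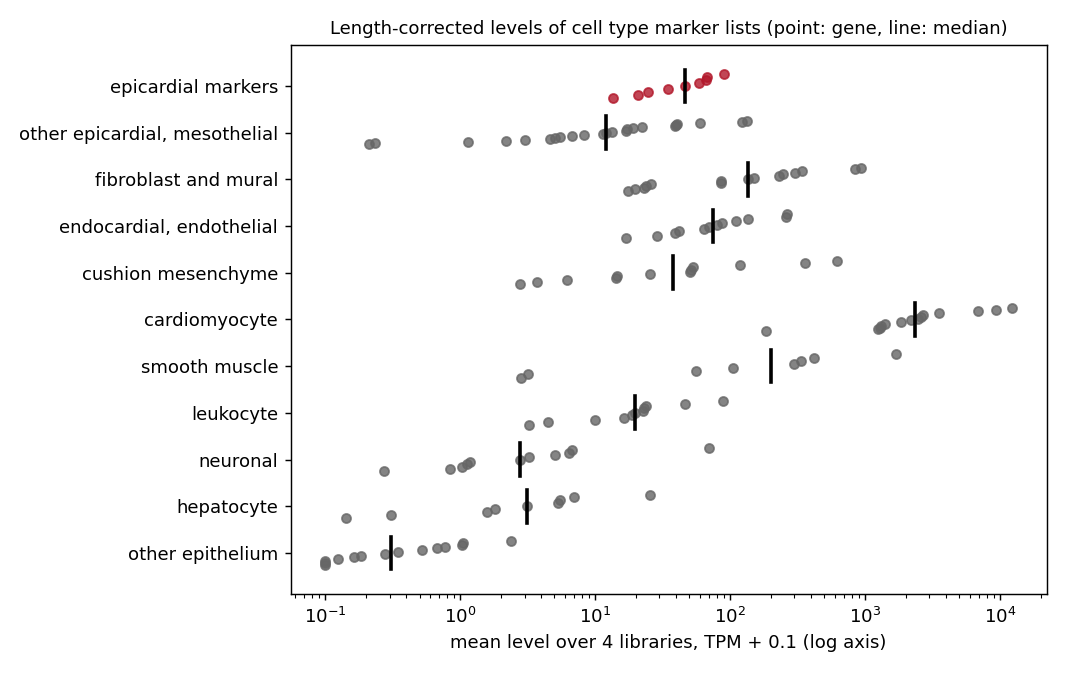
Length-corrected level of each marker gene (TPM plus 0.1, log axis, mean over the 4 libraries), with 1 row per list, 1 point per gene and a line at the list's median. The 9 epicardial markers lie between 13.4 and 90.7 TPM, below the cardiomyocyte markers and above the markers of other epithelia.

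The comparison of mutant with wildtype cushions asked whether epicardial marker transcripts differ where Brg1 is floxed and Cre acts in endocardium. By edgeR's quasi-likelihood test across all genes, 0 of the 9 passed an adjusted p of 0.05, where 0.0629% of all tested genes passed. At an unadjusted p under 0.05 stood 1 of the 9, Krt19, where 5.78% of tested genes did. With the replicate number as a block 0 of the 9 passed, where 0.887% of tested genes did; 0 passed by DESeq2, where 0.426% did, and 0 by limma-voom, where 0.0489% did. The median log2 fold change of the 9 was 0.10, against -0.0027 over all tested genes, and 6 of the 9 were above 0, as were 49.5% of tested genes. In bulk tissue, fewer cells of a type and less RNA per cell cannot be told apart, here or in any value below.

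**Figure D2:**
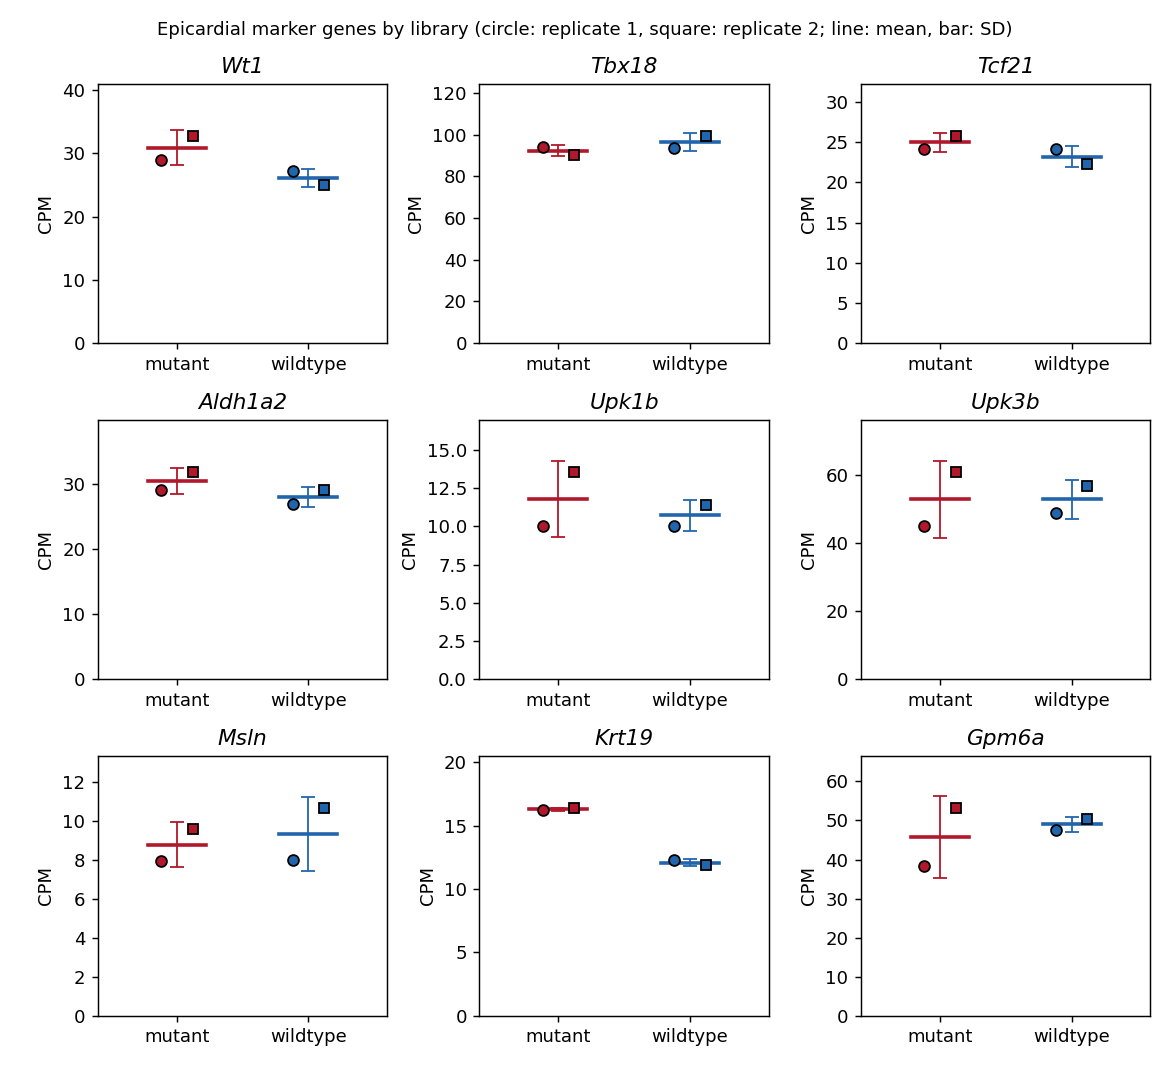
TMM-scaled CPM of each epicardial marker gene, 1 panel per gene with a vertical axis from 0. Circles are replicate 1 and squares replicate 2 of mutant (left) and wildtype (right) cushions, lines are means and bars SD (n = 2 libraries each); Krt19 shows the widest gap between the genotypes relative to its spread, at 16.2 and 16.4 CPM in mutant and 12.3 and 11.9 CPM in wildtype libraries.

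Among the transcription factors, Wt1 (chromosome 2, 105126529 to 105173616, plus strand, GRCm38) encodes a zinc finger protein required for the epicardium to form and for its transition to mesenchyme. It had 657 and 465 reads in mutant replicates 1 and 2, and 510 and 397 reads in wildtype replicates 1 and 2. After scaling these were 28.9 and 32.8 CPM in mutant libraries and 27.2 and 25.1 CPM in wildtype libraries. Both mutant libraries lay above both wildtype libraries, and the gap was smaller between the replicate 1 libraries than between the replicate 2 libraries. Wt1 had a log2 fold change of 0.24 ± 0.16 (SE), with a 95% interval from -0.13 to 0.61 and an edgeR adjusted p of 0.954. It was 0.090 in pair 1 and 0.39 in pair 2.

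Tbx18 (chromosome 9, 87702800 to 87731260, minus strand) encodes a T-box repressor of the proepicardium and epicardium that is also active in the sinus horns. It measured 94.3 and 90.5 CPM in mutant replicates 1 and 2, and 93.4 and 99.6 CPM in wildtype replicates 1 and 2, and the genotypes overlapped. The fitted difference, as log2 of mutant over wildtype, was -0.063 ± 0.13 (SE), with a 95% interval from -0.35 to 0.22, the narrowest of the 9 genes.

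Tcf21 (chromosome 10, 22817281 to 22820174, minus strand) encodes a basic helix-loop-helix factor needed for epicardial cells to become cardiac fibroblasts. It measured 24.2 and 25.8 CPM in mutant replicates 1 and 2, and 24.1 and 22.3 CPM in wildtype replicates 1 and 2. The mutant libraries were both above the wildtype ones, although the replicate 1 libraries were nearly equal. Tcf21 had a log2 fold change of 0.10 ± 0.16 (SE), with a 95% interval from -0.26 to 0.47.

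Promoters from RefSeq on GRCm38.p6, running from 250 bases before to 50 bases after an annotated start, were matched for 5 of the 9 genes: Tbx18, Tcf21, Aldh1a2, Upk3b and Gpm6a, which has 2 starts. They were searched on both strands for cores of factors known from epicardium: CATTCC of TEAD factors, AGATAA of GATA factors and GNGGGGGNG of WT1. The 3 promoters shown are those that hold 1 match each to a different core, in capitals, read 5′ to 3′ along the gene's strand.
Tbx18 (chr9:87731211-87731510, minus strand, WT1 core on the opposite strand): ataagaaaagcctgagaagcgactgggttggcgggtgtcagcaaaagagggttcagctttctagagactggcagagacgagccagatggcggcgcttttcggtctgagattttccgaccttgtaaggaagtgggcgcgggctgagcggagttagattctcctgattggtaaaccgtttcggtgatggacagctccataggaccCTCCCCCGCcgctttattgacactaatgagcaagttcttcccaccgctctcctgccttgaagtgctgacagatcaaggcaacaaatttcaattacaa
Tcf21 (chr10:22820094-22820393, minus strand, GATA core): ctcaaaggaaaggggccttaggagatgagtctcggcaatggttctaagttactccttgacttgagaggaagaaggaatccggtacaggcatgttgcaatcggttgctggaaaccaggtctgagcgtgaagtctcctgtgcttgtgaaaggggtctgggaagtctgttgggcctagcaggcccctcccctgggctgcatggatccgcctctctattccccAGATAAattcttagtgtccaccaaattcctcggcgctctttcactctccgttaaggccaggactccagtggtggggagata
Upk3b (chr5:136038246-136038545, plus strand, TEAD core): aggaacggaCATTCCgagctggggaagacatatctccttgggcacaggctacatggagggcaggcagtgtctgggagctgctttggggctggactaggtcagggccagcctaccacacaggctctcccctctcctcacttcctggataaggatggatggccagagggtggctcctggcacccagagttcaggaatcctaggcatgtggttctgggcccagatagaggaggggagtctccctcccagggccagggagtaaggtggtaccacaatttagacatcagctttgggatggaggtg
The matches began 47 bases before the start in Tbx18, 31 before it in Tcf21 and 241 before it in Upk3b, and the upstream promoter of Gpm6a held a TEAD core 125 bases before its start. Both Gpm6a promoters lie before the gene span given below, and their transcribed ends were found in no GENCODE M21 transcript of the gene. Those of Tbx18, Tcf21, Aldh1a2 and Upk3b were. No matches overlapped each other, and Aldh1a2 and the downstream Gpm6a promoter held none of the 3 cores. Of 32851 promoters of this length, 14.7% held the TEAD core, 11.2% the GATA core and 18.8% the WT1 core, so each is common, and a match here is a description of the letters and not of binding.

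Aldh1a2 (chromosome 9, 71215789 to 71296243, plus strand) encodes the dehydrogenase by which the epicardium makes retinoic acid, a signal to the growing myocardium. It measured 29.0 and 31.9 CPM in mutant replicates 1 and 2, and 26.9 and 29.0 CPM in wildtype replicates 1 and 2. Mutant replicate 1 lay just below wildtype replicate 2, so the genotypes overlapped. For Aldh1a2 the log2 fold change was 0.12 ± 0.16 (SE), with a 95% interval from -0.24 to 0.48, and it was nearly the same in both pairs, at 0.11 and 0.13.

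Other genes of the retinoic acid pathway, which Aldh1a2 belongs to, were read beside it. Of 18 genes on that list 15 passed the low count filter. In either direction 0 passed the edgeR test, where 0.0629% of tested genes did, or 0 with the replicate block, where 0.887% did. By DESeq2 0 passed, where 0.426% did, and 0 had an unadjusted edgeR p under 0.05, where 5.78% did. The median log2 fold change of the 15 was -0.017. Both mutant libraries were below both wildtype libraries in 3 of the 15, where 16.3% of tested genes were. They were above in 2, where 17.0% were. Rxra, a nuclear receptor partner and 1 of the 3, measured 47.9 and 44.8 CPM in mutant replicates 1 and 2. In wildtype replicates 1 and 2 it measured 49.5 and 50.3 CPM. The receptor Rarb had a log2 fold change of -0.16 ± 0.17 (SE), the receptor Rara 0.14 ± 0.16, and Dhrs3, a reductase of retinaldehyde, 0.14 ± 0.18. Dhrs3 was 1 of the 2 genes with both mutant libraries above, while Rarb and Rara overlapped.

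The uroplakins Upk1b and Upk3b are membrane proteins known from the urothelium and from mesothelium. Upk1b (chromosome 16, 38773184 to 38800328, minus strand) measured 10.03 and 13.6 CPM in mutant replicates 1 and 2, and 10.01 and 11.4 CPM in wildtype replicates 1 and 2. Upk3b (chromosome 5, 136038496 to 136046487, plus strand) measured 45.1 and 61.1 CPM in mutant replicates 1 and 2, and 48.9 and 57.0 CPM in wildtype replicates 1 and 2. In both genes replicate 2 was the higher library of each genotype and the wildtype values of Upk3b lay inside the mutant ones. Upk1b had a log2 fold change of 0.13 ± 0.21 (SE), with a 95% interval from -0.35 to 0.61. For Upk3b it was 0.00061 ± 0.18 (SE), with a 95% interval from -0.40 to 0.40.

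Msln (chromosome 17, 25748613 to 25754378, minus strand) encodes mesothelin, a surface glycoprotein anchored by a lipid. It had the fewest reads of the 9 genes, 181 and 136 in mutant replicates 1 and 2, and 150 and 169 in wildtype replicates 1 and 2. These came to 7.97 and 9.60 CPM in mutant libraries and 7.99 and 10.7 CPM in wildtype libraries, which overlapped. Msln had a log2 fold change of -0.089 ± 0.23 (SE), with the widest 95% interval of the 9, from -0.60 to 0.42.

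Gpm6a (chromosome 8, 54954843 to 55060871, plus strand) encodes a tetraspan membrane glycoprotein. It measured 38.2 and 53.2 CPM in mutant replicates 1 and 2, and 47.6 and 50.4 CPM in wildtype replicates 1 and 2. The mutant libraries were the lowest and the highest of the 4. Gpm6a had a log2 fold change of -0.10 ± 0.18 (SE), with a 95% interval from -0.51 to 0.30, and its sign differed between the pairs, at -0.32 in pair 1 and 0.077 in pair 2.

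Krt19 (chromosome 11, 100140810 to 100148665, minus strand) encodes a type I keratin of simple epithelia. It had 368 and 232 reads in mutant replicates 1 and 2, and 231 and 188 reads in wildtype replicates 1 and 2. After scaling it measured 16.2 and 16.4 CPM in mutant libraries and 12.3 and 11.9 CPM in wildtype libraries, a fold of 1.35. Both mutant libraries lay above both wildtype libraries, and the libraries of each genotype were close to each other. Krt19 had a log2 fold change of 0.43 ± 0.17 (SE), with a 95% interval from 0.043 to 0.82 before correction for the number of genes. By edgeR the unadjusted p was 0.0331, ranking 603 of 14316 genes, and the adjusted p was 0.785, so Krt19 did not pass. With the replicate block the unadjusted p was 0.0534 and the adjusted p 0.814. Pair 1 gave a log2 fold change of 0.39, pair 2 gave 0.46, and leaving out 1 library at a time gave 0.40 to 0.46. The other simple epithelial keratins were read beside it. Krt8 had a log2 fold change of 0.15 ± 0.29 (SE), Krt18 of -0.042 ± 0.20 (SE) and Krt7 of 0.041 ± 0.23 (SE), and the libraries of the genotypes overlapped for all 3. Krt19 is also used by other organs, such as the bile ducts of the liver. Beside it 9 hepatocyte markers were read, which mark liver tissue but not its bile ducts. These 9 markers summed to 31.7 and 43.5 CPM in mutant replicates 1 and 2, and 23.9 and 22.6 CPM in wildtype replicates 1 and 2. Most of each sum was Trf, at 19.9 and 24.4 CPM in mutant replicates 1 and 2, and 15.9 and 14.6 CPM in wildtype replicates 1 and 2. Of the 5 hepatocyte markers that passed the low count filter, Alb, Afp and Trf had both mutant libraries above both wildtype libraries, where 17.0% of tested genes did. Ahsg had both below, where 16.3% did, and Ttr overlapped. Of these 5, 0 passed the edgeR test, where 0.0629% of tested genes did, or 2 with the replicate block, where 0.887% did. The log2 fold changes were 2.11 ± 0.51 (SE) for Alb, 1.40 ± 0.35 for Afp, 0.54 ± 0.18 for Trf, -0.50 ± 0.38 for Ahsg and -0.080 ± 0.52 for Ttr. The 4 others had at most 10 reads in any library. The part of other tissues in the Krt19 values was not tested.

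**Figure D3:**
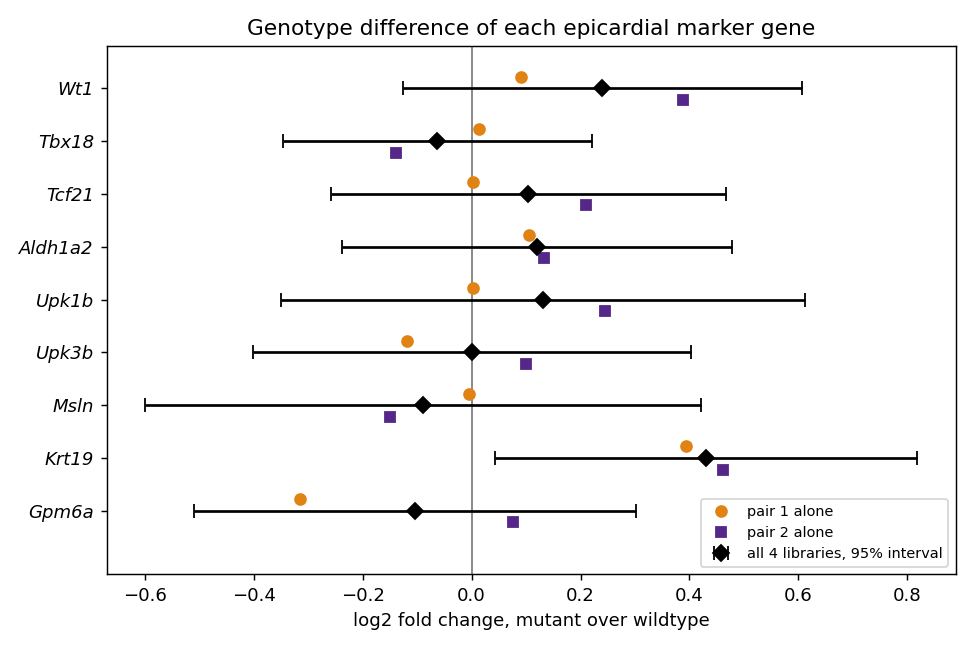
Log2 fold change of each epicardial marker gene, mutant over wildtype. Diamonds with bars are the edgeR estimates from all 4 libraries with unadjusted 95% intervals, circles are pair 1 and squares pair 2; Krt19 alone has an interval that leaves out 0, from 0.043 to 0.82.

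Read together, 3 of the 9 genes (Wt1, Tcf21 and Krt19) had both mutant libraries above both wildtype libraries, where 17.0% of tested genes did, and 0 had both below, where 16.3% did. For 8 of the 9 genes the 95% interval of the log2 fold change included 0. As folds of mutant over wildtype, the intervals of the 9 ran from the lower bound of 0.660 for Msln to the upper bound of 1.76 for Krt19. The summed level of the 9 genes was 294 and 335 CPM in mutant replicates 1 and 2, and 298 and 317 CPM in wildtype replicates 1 and 2, so the mutant libraries held both the lowest and the highest sum. The authors' deposited table, an edgeR likelihood ratio comparison turned here to mutant over wildtype, listed all 9 genes with an adjusted p of 0.99986 and with log2 fold changes from -0.12 for Gpm6a to 0.43 for Krt19.

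Each gene has 2 gaps between replicates, 1 per genotype. The larger gap reached a log2 difference of 0.47 for Gpm6a, 0.44 for Upk3b, 0.43 for Upk1b and 0.41 for Msln. It exceeded the size of the genotype log2 fold change in every gene other than Wt1 and Krt19. The smaller gap exceeded that size only in Upk1b, Upk3b and Msln. A gap between single libraries varies more than a difference between means of 2 libraries, so the sizes are not directly comparable. In 5 of the 9 genes, Aldh1a2, Upk1b, Upk3b, Msln and Gpm6a, replicate 2 was above replicate 1 in both genotypes, where 23.4% of tested genes were. In the transcription factors Wt1, Tbx18 and Tcf21, and in Krt19, the sign of the difference between replicates was not the same in mutant and wildtype libraries. The replicate numbers were read as pairs of mutant and littermate, which the sample titles do not state, and the cause of the gap was not tested. At the lowest counts the counting error alone was 2.79% for Tbx18 to 8.57% for Msln, under the estimated biological coefficient of variation of 10.5% for Tbx18 and 16.0% for Msln.

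**Figure D4:**
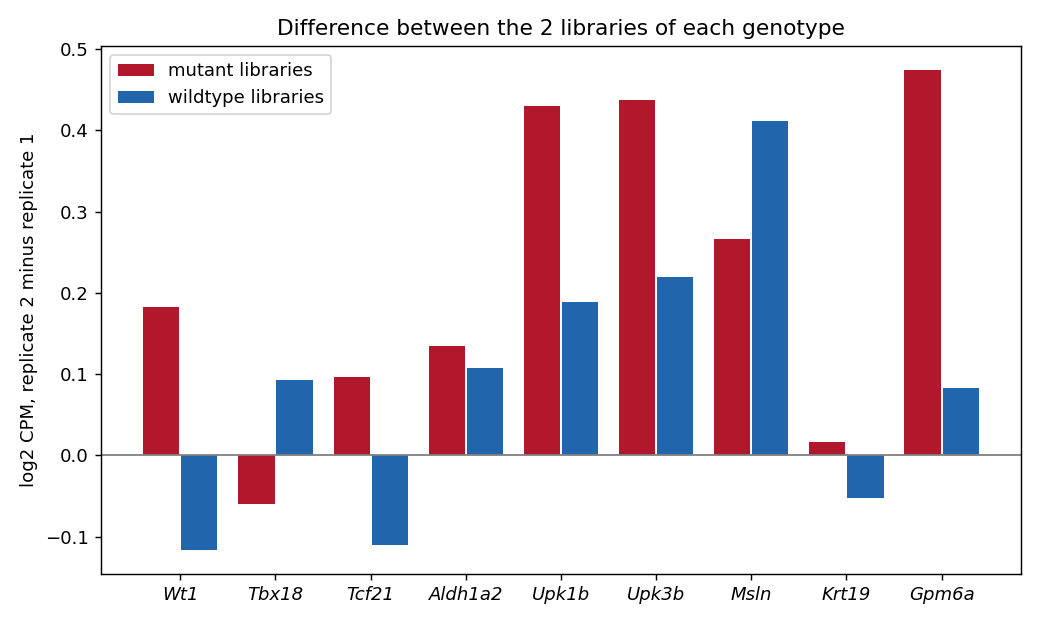
Difference in log2 CPM between replicate 2 and replicate 1 of the mutant (left bar) and wildtype (right bar) libraries for each epicardial marker gene; bars start at 0. The surface genes Upk1b, Upk3b, Msln and Gpm6a and the enzyme gene Aldh1a2 were higher in replicate 2 of both genotypes, by 0.083 to 0.47.

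A wider list of epicardial and mesothelial genes was read beside the 9. Of 24 genes, 23 had a row and 20 passed the low count filter. In either direction 0 passed the edgeR test, where 0.0629% of tested genes did, or 0 with the replicate block, where 0.887% did. By DESeq2 0 passed, where 0.426% did. The median log2 fold change of the 20 was 0.028. Both mutant libraries were above both wildtype libraries in 7 of the 20 and below them in 2, where 17.0% of all tested genes were above and 16.3% below. The 7 were Bnc1, Bnc2, Sema3d, Podxl, Itga4, Lrp2 and Rspo1. Itga4 is the integrin alpha4 subunit that holds epicardial cells to the myocardium, and it is also carried by leukocytes. Of the 20 it was the 1 gene at an unadjusted edgeR p under 0.05, where 5.78% of tested genes were. It measured 81.5 and 70.1 CPM in mutant replicates 1 and 2, and 60.4 and 59.5 CPM in wildtype replicates 1 and 2, with a log2 fold change of 0.34 ± 0.14 (SE) and an edgeR adjusted p of 0.813. Leukocyte markers were read beside it: the 11 with a row summed to 190 and 217 CPM in mutant replicates 1 and 2, and 133 and 129 CPM in wildtype replicates 1 and 2; 10 of the 11 had both mutant libraries above both wildtype libraries, where 17.0% of tested genes did. Of the 11, 1 passed the edgeR test, where 0.0629% of tested genes did, or 4 with the replicate block, where 0.887% did. The part of leukocytes in the Itga4 values was not tested.

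Bnc1, a zinc finger factor of mesothelium, measured 17.1 and 23.7 CPM in mutant replicates 1 and 2, and 13.3 and 16.7 CPM in wildtype replicates 1 and 2. That gave a log2 fold change of 0.44 ± 0.21 (SE) and an edgeR adjusted p of 0.891. Like the surface genes above, it was higher in replicate 2 of both genotypes. That held for 9 of the 20 genes, where 23.4% of tested genes did so. Another 3 of the 20 were lower in replicate 2 of both genotypes, where 23.4% of tested genes were. Sema3d, a secreted semaphorin of the proepicardium, measured 119 and 127 CPM in mutant replicates 1 and 2, and 97.9 and 106 CPM in wildtype replicates 1 and 2. Podxl, a sialomucin of epicardium that endothelium also carries, had a log2 fold change of 0.20 ± 0.12 (SE), and Lrp2, the endocytic receptor megalin, 0.34 ± 0.17. Gata5, a zinc finger factor, and Clu, a secreted chaperone, had log2 fold changes of 0.0063 ± 0.17 (SE) and 0.014 ± 0.15, and Nkain4 lay lower in both mutant libraries at -0.40 ± 0.19.

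Genes of the fibroblasts and mural cells to which the epicardium gives rise were read last. These genes are not particular to that origin, since cushion mesenchyme uses many of them too. Of 15 genes, 15 passed the low count filter. By edgeR 0 passed, where 0.0629% of tested genes did, or 0 with the replicate block, where 0.887% did. By DESeq2 0 passed, where 0.426% did. An unadjusted edgeR p under 0.05 was found in 3, all lower in mutant libraries, where 5.78% of tested genes had such a p in either direction. The median log2 fold change of the 15 was 0.091. Dpt, a matrix protein of fibroblasts, had the lowest p of the list. It measured 26.7 and 22.6 CPM in mutant replicates 1 and 2, and 39.1 and 42.4 CPM in wildtype replicates 1 and 2, with a log2 fold change of -0.72 ± 0.16 (SE), an edgeR adjusted p of 0.216 and, with the replicate block, of 0.0777. Pdgfra, the platelet-derived growth factor receptor of fibroblast precursors, measured 277 and 248.8 CPM in mutant libraries and 324 and 343 CPM in wildtype libraries, with a log2 fold change of -0.34 ± 0.13 (SE). Lum, the collagen-binding proteoglycan lumican, had a log2 fold change of -0.31 ± 0.13 (SE). Both mutant libraries lay below both wildtype libraries in these 3 genes, where 16.3% of tested genes were, and above them in 1, Gsn, where 17.0% were. Col3a1, Postn, Col1a2 and Col1a1, the 4 with the highest mean CPM of the list (not corrected for length), had log2 fold changes of 0.098, -0.026, 0.32 and 0.56, with overlapping libraries; Col1a1 was at 661 and 373 CPM in mutant replicates 1 and 2, and 280 and 423 CPM in wildtype replicates 1 and 2.

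**Figure D5:**
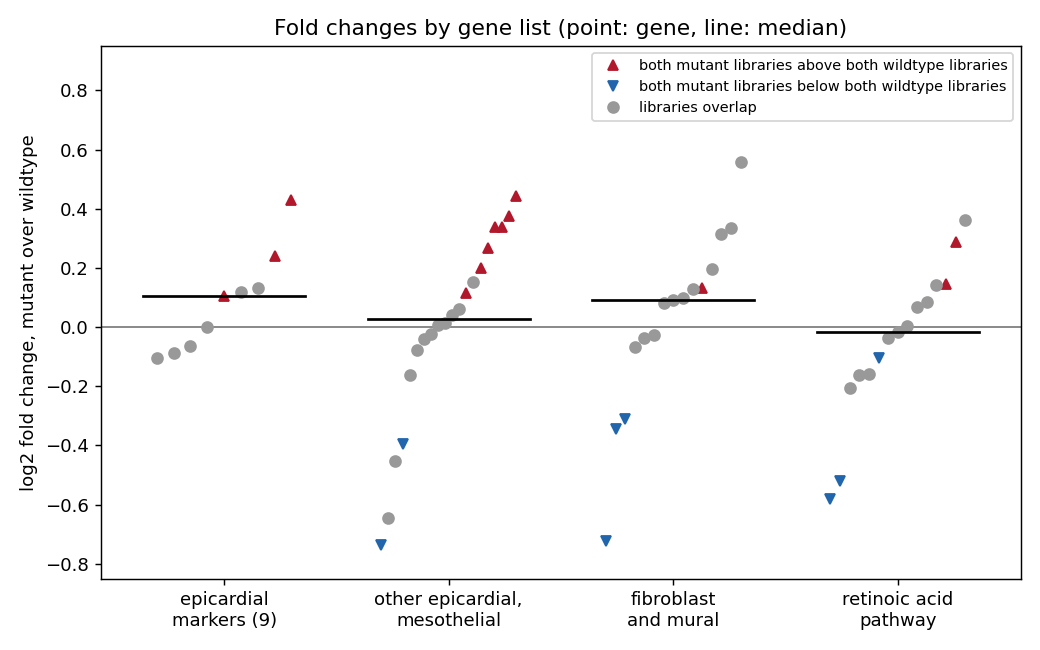
Log2 fold change of each tested gene, mutant over wildtype, for the 9 epicardial markers, 20 other epicardial and mesothelial genes, 15 fibroblast and mural genes and 15 genes of the retinoic acid pathway; lines are medians. Upward triangles have both mutant libraries above both wildtype libraries, downward triangles have both below, and grey circles overlap; 0 of these genes passed an adjusted p of 0.05.

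The tissues around the epicardium were read as summed marker levels. Cardiomyocyte markers summed to 61716 and 67671 CPM in mutant replicates 1 and 2, and 78741 and 70417 CPM in wildtype replicates 1 and 2. The largest part of each sum was Ttn, at 29552 and 31334 CPM in mutant libraries and 37497 and 34651 CPM in wildtype libraries. Of the 14 cardiomyocyte markers, 0 passed the edgeR test, where 0.0629% of tested genes did. With the replicate block 1 passed, lower in mutant libraries, where 0.887% of tested genes passed in either direction. By DESeq2 2 passed, where 0.426% did. Endocardial and endothelial markers summed to 1454 CPM in each mutant library, and to 1516 and 1552 CPM in wildtype replicates 1 and 2. Of the 12, 0 passed the edgeR test, where 0.0629% of tested genes did. With the replicate block 2 passed, lower in mutant libraries, where 0.887% did in either direction, and by DESeq2 2 passed, where 0.426% did. Cushion mesenchyme markers summed to 3390 and 3024 CPM in mutant libraries, and to 3540 and 3302 CPM in wildtype libraries. Vcan and Tbx20 were the largest parts of these sums. Vcan was at 1912 and 1795 CPM in mutant libraries and 2306 and 1949 CPM in wildtype libraries. Tbx20 was at 1011 and 914 CPM in mutant libraries and 872 and 970 CPM in wildtype libraries. Of the 12 cushion markers, 0 passed by edgeR, with the replicate block or by DESeq2. Both mutant libraries lay below both wildtype libraries in 4 of 14 cardiomyocyte, 3 of 12 endocardial and endothelial and 4 of 12 cushion markers. That was so for 16.3% of tested genes. They lay above in 0, 2 and 0 of these lists, where 17.0% of tested genes did. The part of tissue makeup in the values of the 9 epicardial genes was not tested.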

How the data were processed

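The authors deposited raw counts of reads per gene symbol for 2 mutant and 2 wildtype libraries. Per the submitters' processing notes, the tools were TopHat2, Bowtie2, HTSeq, SAMtools and edgeR, and the build was mm10. No version, annotation or strandedness is stated there, so reads of overlapping genes cannot be told apart. In GENCODE M21, Tbx18 has an antisense gene that overlaps its exons; none of the genes overlapping the 9 markers has a row of its own in the counts. Tallies outside genes were left out of library sizes; they held 51.8% to 54.4% of tallied reads as outside every feature and 16.1% to 17.0% as aligned to several places. A second table deposited by the authors holds their edgeR comparison, with log2 fold changes (wildtype over mutant, turned here), log2 CPM, a likelihood ratio score, p-values and, for its top rows, a fold change ratio that was not used.

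The test was that of edgeR 4.0.16 under R 4.3.3 (TMM scaling, filterByExpr, quasi-likelihood F test, Benjamini-Hochberg adjustment over all 14316 tested genes, threshold 0.05). CPM are scaled by TMM; a prior count of 2 was added before logs. Standard errors come from the log2 fold change and its F statistic, and 95% intervals from the t distribution of the fit, without adjustment. TPM were computed here from the counts and the union of exons in GENCODE M21 (GRCm38, the mm10 assembly), which named 22843 of the 23337 rows by current or former symbol. The series describes pairs of mutants and littermates, so the replicate numbers were read as pairs, although the sample titles give only the numbers. Deviations of libraries with 1 number from their genotype's mean correlated at 0.144 over genes, which are not independent replicates. In replicate 2 of both genotypes, 23.4% of tested genes were higher and 23.4% lower. The correlation is weak and does not settle the pairing. Alternatives were the replicate block, DESeq2 1.42.0, limma-voom (limma 3.58.1), other scalings, filters and thresholds, and each library left out. The members, the gene lists and the tests were chosen with earlier results of these data known. All 9 markers are named; from the 3 related lists, genes past the test and the 6 highest by mean CPM, uncorrected for length, could be named, and Krt7, Krt8, Krt18, Dpt, Lum, Bnc1, Bnc2, Rspo1, Nkain4, Gsn, Gap43 and the hepatocyte markers were added after their values were seen. Without molecular identifiers, reads do not each stand for 1 molecule, so counting errors cover counting only.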

Additional observations from a re-analysis of the deposited data

How the results depend on the processing

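The count of 0 called epicardial marker genes held under all 14 other settings, and Wt1, Tbx18, Tcf21, Aldh1a2 and Krt19 kept the sign of their log2 fold change in the 13 settings that refit the counts. Upk3b, near 0, was at -0.0097 with the replicate block, -5.0e-06 with RLE scaling, -0.0054 without a low count filter, -0.010 by DESeq2 with the replicate block and -0.021 by limma-voom. Leaving out 1 library gave -0.23 to 0.21 for Upk3b, -0.28 to 0.13 for Msln, -0.35 to 0.12 for Gpm6a and -0.088 to 0.34 for Upk1b; the lowest came without mutant replicate 2 for Upk3b, Gpm6a and Upk1b and without wildtype replicate 1 for Msln, and the lone library of a genotype is assumed to vary like the others. The median of the 9 was -0.028 without mutant replicate 2, up to 0.19 with another library left out, and 0.0033 in pair 1 alone, a setting added after seeing the data. The cause was not tested. The count of 9 called genes overall became 127 with the replicate block, 61 with DESeq2 and 30 with DESeq2 and the block, 236 with no filter on low counts, 171 by the likelihood ratio test, 24 at a threshold of 0.10, and 3 to 443 with 1 library left out (3 without wildtype replicate 2, 6 without wildtype replicate 1, 180 without mutant replicate 1, 443 without mutant replicate 2). The block changed no call of an epicardial marker gene. At 136 reads for Msln, counting error alone was 8.57%.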

Other observations

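Of the 14 markers of other epithelia, Krt5, a keratin of stratified epithelium that was below the low count filter, had 1 and 20 reads in mutant replicates 1 and 2, and 1 and 5 reads in wildtype replicates 1 and 2. Esrp1, an epithelial splicing regulator, had 13 and 20 reads in mutant replicates 1 and 2, and 3 and 3 reads in wildtype replicates 1 and 2, with an edgeR unadjusted p of 0.00785 and an adjusted p of 0.462. Cdh1, the cadherin of epithelial junctions, had 7 and 13 reads in mutant replicates 1 and 2, and 5 and 13 reads in wildtype replicates 1 and 2. All 3 were picked after their values were seen, and at under 25 reads per library their counts rest on few molecules.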
